A study of Homo sapiens with 2 samples.

Results

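Epithelial-mesenchymal transition (EMT) is the shift of cells from a state with tight lateral junctions to a loose, motile one. It was followed here through 10 genes, namely the transcription factors SNAI1, SNAI2, ZEB1, ZEB2 and TWIST1, the intermediate filament gene VIM, and the cadherins CDH1, CDH2, CDH3 and CDH11. They were taken by a list of names, drawn up with earlier results of these data known, and all 10 were among the 19362 genes of the table. The cells, FTC-133, are a human line established from a follicular thyroid carcinoma. The study silenced CHI3L1, the gene of the secreted chitin-binding glycoprotein YKL-40, and asked which transcripts differed. One group was FTC-133 cells given a control siRNA and the other was FTC-133 cells given siRNA against CHI3L1, with 1 library each, called the control and the knockdown library below. No source used here gives the time after transfection or the siRNA sequences, and all values come from a single cell line.

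Classical cadherins are adhesion proteins that bind their like on the neighbouring cell and are tied to actin through catenins. E-cadherin (CDH1) holds epithelial sheets together, whereas N-cadherin (CDH2) and cadherin-11 (CDH11) are typical of mesenchymal cells. SNAI, ZEB and TWIST proteins bind E-box DNA and repress CDH1 in many carcinomas, and vimentin filaments replace or join keratin filaments as cells lose epithelial traits. Thyroid follicles are epithelial and normally rich in E-cadherin.

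Both FTC-133 libraries lay far to the mesenchymal side on these genes. VIM was among the most abundant transcripts, CDH2 was the highest of the 4 cadherins, all 5 transcription factors were detected, and CDH1 was close to the detection limit. In the knockdown library CDH11 was 3.19 times and CDH3 2.20 times its level in the control library, ZEB2 was 1.56 times and VIM 1.49 times, and SNAI2 and TWIST1 differed by less than their counting error. CDH1 had 17 reads against 31, too few to show a difference of this size.

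Values are in CPM, the reads of a gene scaled to a common library total, and 1 read was worth 0.0632 CPM in the control library of 15837449 reads and 0.0513 CPM in the knockdown library of 19467345 reads. The log2 fold sets the knockdown library over the control library with 1 CPM added to each, which shrinks the folds of low genes. Ratios are of CPM without that addition, with 95% exact (Clopper-Pearson) intervals for counting error only. Each group has 1 library, so differences lack any replicate check, p-values are absent, and statements concern these libraries and not the conditions. A gene counts as higher or lower when its log2 fold passes 1.5-fold and its mean is at least 1 CPM. CHI3L1 itself stood at 140 CPM in the control library and 48.6 CPM in the knockdown library, and their ratio was 0.347 (0.321 to 0.374). Of 8 thyroid markers 6 had a row. PAX8 stood at 82.8 and 71.2 CPM and NKX2-1 at 88.6 and 112 CPM, and TSHR at 8.73 and 9.23 CPM. HHEX had 50 and 68 reads, FOXE1 1 and 19, and thyroglobulin (TG) 10 and 14, and SLC5A5 had no row. Leukocyte and endothelial markers were low. For leukocytes 1 of 6 had a row (PTPRC, 12 and 8 reads), and 4 of 6 endothelial markers, without CDH5 and EMCN, summed to 14.0 and 12.2 CPM. The 6 fibroblast markers summed to 82.8 and 89.3 CPM, mostly LUM (51.8 and 40.2) and COL3A1 (18.0 and 37.1). DCN had 19 and 29 reads and PDGFRA 9 and 2. The 6 smooth muscle and pericyte markers summed to 269.5 and 522.9 CPM, mostly CSPG4 (206.6 and 410.7) and ACTA2 (55.4 and 102), with DES at 6 and 8 reads, and their part in the results was not tested.

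All 10 members passed the mean of 1 CPM. Of these, 3 were at least 1.5-fold higher in the knockdown library (CDH11, CDH3 and ZEB2) and 0 lower, beside 7.73% of all 14815 tested genes higher and 13.4% lower. Just inside the threshold lay ZEB2, with a log2 fold of 0.61, and just outside it VIM, with 0.57. At 2-fold 2 members were higher, CDH11 and CDH3, beside 1.03% of tested genes, and 0 were lower, beside 4.41%. All 10 log2 folds were above 0, as were 51.2% of those of tested genes, and the members' median was 0.40 against 0.01. The counting interval of the ratio lay above 1 for 7 members and held 1 for SNAI2, TWIST1 and CDH1.

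**Figure D1:**
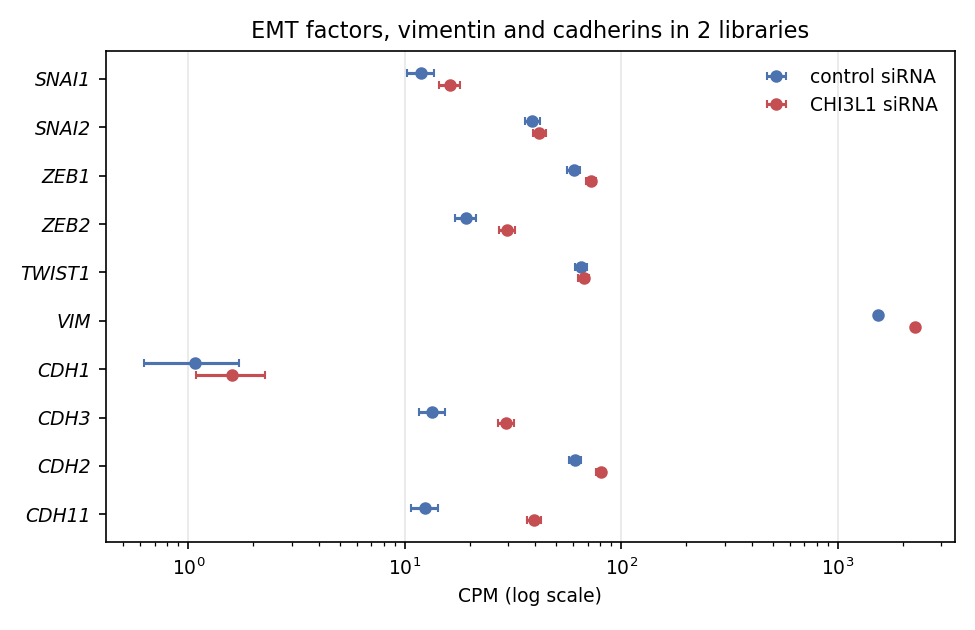
CPM of each member (log axis) in the control library (blue) and the knockdown library (red), 1 library each; bars are 95% Poisson intervals from the reads. The intervals of CDH11 (12.4 and 39.5 CPM) and CDH3 (13.4 and 29.4 CPM) lie apart, while those of CDH1, SNAI2 and TWIST1 overlap.

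SNAI1 (Snail) and SNAI2 (Slug) are zinc-finger repressors. SNAI1 (ENSG00000124216, chromosome 20, 49982999 to 49988886 in GRCh38) stood at 11.8 CPM in the control library and 16.1 CPM in the knockdown library. Its ratio was 1.36 (1.13 to 1.64) and its log2 fold 0.42, short of 1.5-fold, though 0.59 and past it once length and GC trends were subtracted. SNAI2 (ENSG00000019549, chromosome 8, 48917604 to 48921740) stood at 38.8 and 41.8 CPM, and their ratio was 1.08 (0.967 to 1.20). Its counting intervals overlapped between the libraries. Per kb of transcript, the scale on which levels of different genes can be compared, SNAI2 stood at 2.75 times SNAI1 (2.33 to 3.26) in the control library and 2.17 times (1.91 to 2.48) in the knockdown library.

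TWIST1 is a basic helix-loop-helix factor of mesoderm and neural crest. The gene (ENSG00000122691, chromosome 7, 19020991 to 19117672) stood at 65.3 CPM in the control library and 67.0 CPM in the knockdown library, and their ratio was 1.03 (0.945 to 1.11). At 39.2 and 40.2 CPM per kb it was the highest of the 5 transcription factors in each library, above 85.0% and 86.6% of tested protein-coding genes. Its paralogue TWIST2, named for that kinship, stood at 21.9 and 28.1 CPM, and their ratio was 1.28 (1.12 to 1.47).

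ZEB1 and ZEB2 are large factors with a zinc-finger cluster at each end and a homeodomain between. ZEB1 (ENSG00000148516, chromosome 10, 31318495 to 31529814) stood at 60.2 CPM in the control library and 72.2 CPM in the knockdown library, with a ratio of 1.20 (1.10 to 1.30) and a log2 fold of 0.26. ZEB2 (ENSG00000169554, chromosome 2, 144364364 to 144524583) stood at 19.1 and 29.7 CPM, with a ratio of 1.56 (1.35 to 1.79) and a log2 fold of 0.61. Of the 5 factors ZEB2 alone passed 1.5-fold in the deposited values, with a counting interval that reached below 1.5. That call ended with 10 CPM added (log2 fold 0.45), after centring on genes averaging 50 CPM or more (0.51), and once length and GC trends were subtracted (0.43). Per kb, ZEB1 stood at 5.55 times ZEB2 (4.87 to 6.33) in the control library and 4.28 times (3.88 to 4.72) in the knockdown library, so the ZEB2 share of the pair was larger in the latter beyond counting error. Exons of ZEB1 overlap those of the antisense gene ZEB1-AS1 (131 and 174 reads). Because no source used here gives the strand setting of the counting, reads of such pairs cannot be told apart.

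The 250 bases before the most upstream RefSeq start of ZEB1 are shown because this factor family binds the E-box, searched as CAGGTG and its reverse complement CACCTG, 2 spellings of the same site. Promoter windows of 250 bases before to 50 after a start were found in RefSeq (GRCh38.p14) for 4 members, ZEB1, ZEB2, VIM and CDH2. The E-box was held by 20.6% of the 35116 windows listed for all genes. In ZEB1, which has 7 windows, 2 held it, and the windows of ZEB2, VIM and CDH2 did not hold these letters. The capitals mark the E-box, whose first base is at −57 from the start. The window lies at chr10:31318167-31318416 on the plus strand.
ZEB1: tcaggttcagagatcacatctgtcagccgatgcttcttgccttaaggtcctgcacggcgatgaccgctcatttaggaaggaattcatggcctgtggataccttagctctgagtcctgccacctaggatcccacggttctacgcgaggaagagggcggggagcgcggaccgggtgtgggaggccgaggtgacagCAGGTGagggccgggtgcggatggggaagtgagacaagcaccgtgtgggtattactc
For comparison, the 250 bases before the start of VIM, the most abundant member, at chr10:17227991-17228240 on the plus strand, had 46.0% GC against 59.2% for ZEB1.
VIM: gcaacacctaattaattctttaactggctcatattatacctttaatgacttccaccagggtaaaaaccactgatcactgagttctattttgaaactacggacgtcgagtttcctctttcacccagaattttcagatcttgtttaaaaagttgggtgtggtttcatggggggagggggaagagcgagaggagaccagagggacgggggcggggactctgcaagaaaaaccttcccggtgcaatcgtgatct
A match is a description of letters and no binding was measured.

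VIM (ENSG00000026025, chromosome 10, 17228259 to 17237593) stood at 1534 CPM in the control library and 2282 CPM in the knockdown library, from 24260 and 44493 reads. The ratio was 1.49 (1.46 to 1.51) and the log2 fold 0.57. At 821 and 1222 CPM per kb it was above 99.4% and 99.8% of tested protein-coding genes. VIM was the member with the tightest counting interval, which reached both sides of 1.5. The antisense gene VIM-AS1, which overlaps it, had 101 and 72 reads, and their ratio was 0.578 (0.421 to 0.790).

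Vimentin filaments are linked to the nucleus and to adhesion sites by plectin (PLEC). Of 11 genes for such partners and other intermediate filaments, 10 had a row and 7 passed the mean of 1 CPM. The 7 held 1 higher (NEFL), 0 lower and 6 neither, beside 7.73% of all tested genes higher and 13.4% lower. PLEC stood at 1006 and 1318 CPM, a log2 fold of 0.39. SYNM, a vimentin-binding filament protein of muscle, had a log2 fold of 0.54. The neurofilament gene NEFL stood at 6.07 and 13.6 CPM, and their ratio was 2.24 (1.77 to 2.86). The nuclear lamin genes LMNA and LMNB2 had log2 folds of 0.32 and 0.27. Reads of LMNB2 overlap those of TIMM13 on the same strand.

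CDH1 (ENSG00000039068, chromosome 16, 68737225 to 68835548) had 17 reads in the control library and 31 in the knockdown library, or 1.08 CPM (interval 0.626 to 1.72) and 1.59 CPM (1.08 to 2.26). The ratio was 1.48, and its interval of 0.794 to 2.85 held 1, so a difference was not detectable at this depth. Per kb it was the lowest of the 10 members in each library, at 0.220 and 0.325 CPM per kb. Of tested protein-coding genes, 0.995% and 1.85% stood lower. The intervals of its level still lie above 0.190 and 0.154 CPM, the value of 3 reads in each library, taken as a floor.

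CDH3 (ENSG00000062038, chromosome 16, 68636189 to 68722616), the gene of P-cadherin, a classical cadherin of basal epithelium and placenta, lies 14.6 kb upstream of CDH1 on the same strand. It stood at 13.4 CPM in the control library and 29.4 CPM in the knockdown library, from 212 and 574 reads. The ratio was 2.20 (1.87 to 2.58) and the log2 fold 1.08, higher than those of 99.3% of tested genes. Although adjacent, CDH3 stood at 12.4 times CDH1 per kb (7.54 to 21.6) in the control library and 18.4 times (12.8 to 27.3) in the knockdown library. These intervals overlapped, and no interval was computed for the difference in this balance between the libraries, so a difference was not shown.

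CDH2 (ENSG00000170558, chromosome 18, 27950966 to 28177446) stood at 61.2 CPM in the control library and 80.3 CPM in the knockdown library, with a ratio of 1.31 (1.21 to 1.42) and a log2 fold of 0.39. Per kb, CDH2 stood at 64.3 times CDH1 (39.9 to 111) in the control library and 57.0 times (40.0 to 84.2) in the knockdown library. The N-cadherin to E-cadherin ratio therefore differed between the libraries by less than its counting error, and was large in each.

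CDH11 (ENSG00000140937, chromosome 16, 64943753 to 65126112), a type II cadherin of osteoblasts and fibroblasts, stood at 12.4 CPM in the control library and 39.5 CPM in the knockdown library, from 196 and 770 reads. The ratio was 3.19 (2.72 to 3.75) and the log2 fold of 1.60 was number 12 from the top of 14815 tested genes. Its counting intervals did not overlap between the libraries. Per kb, CDH11 stood at 0.128 times CDH2 (0.109 to 0.149) in the control library and 0.311 times (0.285 to 0.339) in the knockdown library, a difference beyond counting error. Among other protein-coding genes, the nearest to CDH11 in log2(CPM + 1) of both libraries were PCSK1, CDH3 and C2, at Euclidean distances of 0.40, 0.42 and 0.44, a likeness over 2 libraries only.

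Ordered by level per kb in the control library, the members ran VIM, TWIST1, SNAI2, CDH2, ZEB1, SNAI1, CDH3, ZEB2, CDH11 and CDH1. Each stood above the next beyond counting error, except ZEB2 over CDH11 (1.81 CPM per kb). In the knockdown library CDH11 (5.76 CPM per kb) stood above ZEB2 (3.11) and was not distinguishable from CDH3 (5.97), and the other places were the same. Of the summed level per kb of the 4 member cadherins, CDH2 made up 74.9% in the control library and 60.6% in the knockdown library. CDH11 made up 9.58% and 18.8%, CDH3 14.4% and 19.5%, and CDH1 1.16% and 1.06%.

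The cadherin repertoire was wider than the members. Of 18 other cadherin genes 9 had a row and 7 passed the mean of 1 CPM, with a median log2 fold of 0.07. Of those 7, 0 were higher, 1 was lower and 6 were neither, beside 7.73% of all tested genes higher and 13.4% lower. CDH24 (18.6 CPM per kb) and CDH9 (16.9) stood above CDH2 (14.1) in the control library, at 1.32 times (1.20 to 1.45) and 1.20 times (1.09 to 1.32) its level. In the knockdown library CDH9 stood at 1.11 times CDH2 (1.03 to 1.19) and CDH24 at 0.939 times (0.865 to 1.02). CDH9, CDH12 and CDH6 are type II cadherins known best from brain and kidney, and their log2 folds were 0.27, 0.38 and 0.32. The lower gene was CDH15, the muscle M-cadherin, at 12.3 and 6.10 CPM, and their ratio was 0.495 (0.391 to 0.625). CDH16, a cadherin of kidney and thyroid epithelium named after its values were seen, had 17 and 4 reads and lay below the mean of 1 CPM.

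**Figure D2:**
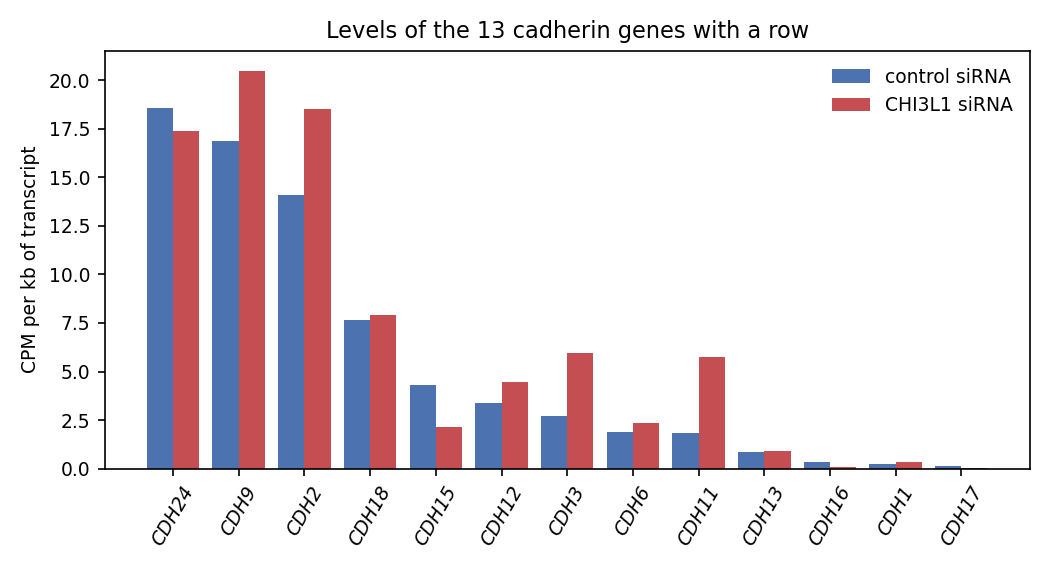
Level in CPM per kb of transcript for the 13 cadherin genes with a row, in the control library (blue) and the knockdown library (red), 1 library each, with no error bars. CDH24, CDH9 and CDH2 are the highest bars in each library, CDH3 and CDH11 are higher in red, and CDH1 is near 0.

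Cadherins work through catenins, which link their tails to actin. Of 15 catenin and adherens junction genes 13 had a row and 11 passed the mean of 1 CPM. None of these was past 1.5-fold in either direction (0 of 11), beside 7.73% of all tested genes higher and 13.4% lower. Their median log2 fold was 0.17. CTNNB1 (beta-catenin) stood at 432 and 435 CPM, and their ratio was 1.01 (0.977 to 1.04). CTNNA1 (alpha-catenin) stood at 205 and 282 CPM, CTNND1 (p120-catenin) at 95.3 and 138 CPM, and the actin linker VCL (vinculin) at 245 and 367 CPM. NECTIN3, an immunoglobulin-like adhesion gene, stood at 47.4 and 36.1 CPM. Not all linkers were abundant: JUP (plakoglobin), named after its values were seen, had 48 and 67 reads.

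Desmosomes hold epithelial cells together through their own cadherins. Of 12 desmosome genes 4 had a row and each passed the mean of 1 CPM. Higher were 2 and lower 0, beside 7.73% of all tested genes higher and 13.4% lower. DSG2 (desmoglein 2) stood at 123 and 235 CPM, and their ratio was 1.91 (1.81 to 2.02). DSC2 (desmocollin 2) had 32 and 83 reads, and their ratio was 2.10 (1.38 to 3.27), and the plakophilins PKP3 and PKP4 had log2 folds of 0.43 and 0.31. DSP, PERP, PKP1, PKP2, DSG1, DSG3, DSC1 and DSC3 had no row and were not analysed here.

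Of 11 genes for cadherin processing and turnover 10 had a row and passed the mean of 1 CPM, with 2 higher and 0 lower, beside 7.73% and 13.4% of all tested genes, and a median log2 fold of 0.41. After the length and GC correction none was past 1.5-fold (0 of 10) and the median was 0.12. ADAM15, a membrane protease, stood at 51.7 and 82.6 CPM. MGAT5, which adds branched N-glycans, stood at 61.2 and 94.0 CPM. FURIN, which removes the cadherin prodomain, stood at 102 and 137 CPM, a log2 fold of 0.42. The recycling GTPase gene RAB11A had a log2 fold of −0.51.

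On the epithelial side, 27 of 32 state genes had a row and 21 passed the mean of 1 CPM. Of these 5 were higher, 0 lower and 16 neither, beside 7.73% of all tested genes higher and 13.4% lower, and the median log2 fold was 0.13. With 10 CPM added the count of higher genes was 1 of 21, and among genes averaging 10 CPM or more 1 of 9. No share of all genes is given here for those settings. At 2-fold the count was 1 of 21, beside 1.03% of all tested genes. MUC1, the gene of a cell-surface mucin, stood at 21.4 and 46.8 CPM, and their ratio was 2.18 (1.92 to 2.48). Claudin CLDN1 had 51 and 139 reads and a log2 fold of 0.94. CLDN7 had 62 and 144 reads and 0.77, and EPCAM 32 and 78 reads and 0.73. The exons of CLDN7 overlap those of ELP5 on the opposite strand, which had 598 and 619 reads, so CLDN7 is uncertain. The fifth was MARVELD2, a tight junction gene named after its values were seen, with a log2 fold of 0.63. Averaged over the libraries, the highest epithelial levels per kb were those of the keratin KRT7, at 256 and 291 CPM, and the surface protein gene CD24, at 121 and 109 CPM, both short of 1.5-fold.

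Regulators that hold the epithelial state were sparse. Of 15 such genes 7 had a row and 4 passed the mean of 1 CPM. Among those 4, 3 were higher and 0 lower, beside 7.73% of all tested genes higher and 13.4% lower. GRHL1, a grainyhead factor, had 9 and 35 reads, TP63, a basal epithelial factor, 10 and 31, and KLF5, a Kruppel-like factor, 113 and 229. The fourth, KLF4, stood at 34.5 and 39.0 CPM. GRHL2, GRHL3, OVOL1, OVOL2, ESRP1, RBM47, FOXA1 and FOXA2 had no row and were not analysed here. GRHL1 and TP63 passed the mean of 1 CPM only through the knockdown library, so that their place among the higher genes follows in part from that filter.

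On the mesenchymal side, 40 of 40 state genes had a row and 38 passed the mean of 1 CPM. Of these 17 were higher, 1 lower and 20 neither, beside 7.73% of all tested genes higher and 13.4% lower, and the median log2 fold was 0.47 against 0.01. After the length and GC correction 12 were higher and 0 lower. The collagen genes COL1A2 (1814 and 4959 CPM) and COL5A2 (215 and 564 CPM), the cross-linking enzyme gene LOX (239 and 654 CPM) and the proteoglycan gene BGN (22.6 and 54.1 CPM) had the largest folds. FN1, the fibronectin gene, stood at 17407 and 39639 CPM, and LGALS1, the galectin-1 gene, at 2559 and 2520 CPM. The lower gene was S100A4, named after its values were seen, at 108 and 54.5 CPM. At 2-fold 10 of these genes were higher, beside 1.03% of all tested genes.

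The median level of the mesenchymal genes was 56.1 CPM per kb in the control library and 88.6 in the knockdown library. For the 27 epithelial genes with a row it was 1.41 and 2.20 CPM per kb, but 6 of them lay below the mean of 1 CPM. Among the 21 that passed it, the middle value was 2.84 (LSR) in the control library and 2.67 (LLGL2) in the knockdown library. Over all tested protein-coding genes, which each passed that mean, the median was 8.44 and 8.57. At least 10 CPM was reached by 35 of 40 mesenchymal genes in each library, and by 9 of 27 epithelial genes in the control library and 7 in the knockdown library. Summed per kb, the mesenchymal genes stood at 10115 and 14624 CPM per kb, a ratio of 1.45. Without FN1, a choice not planned beforehand, their sum was 7911 and 9605 CPM per kb, a ratio of 1.21. LGALS1 alone made up 4569 and 4500 of that sum. The epithelial genes stood at 319 and 367 CPM per kb, a ratio of 1.15. Without KRT7 and MUC1, a choice made after seeing the data, the epithelial sum was 148.5 and 146.9 CPM per kb, a ratio of 0.989. In bulk RNA, more cells of one state and more RNA per cell cannot be told apart.

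**Figure D3:**
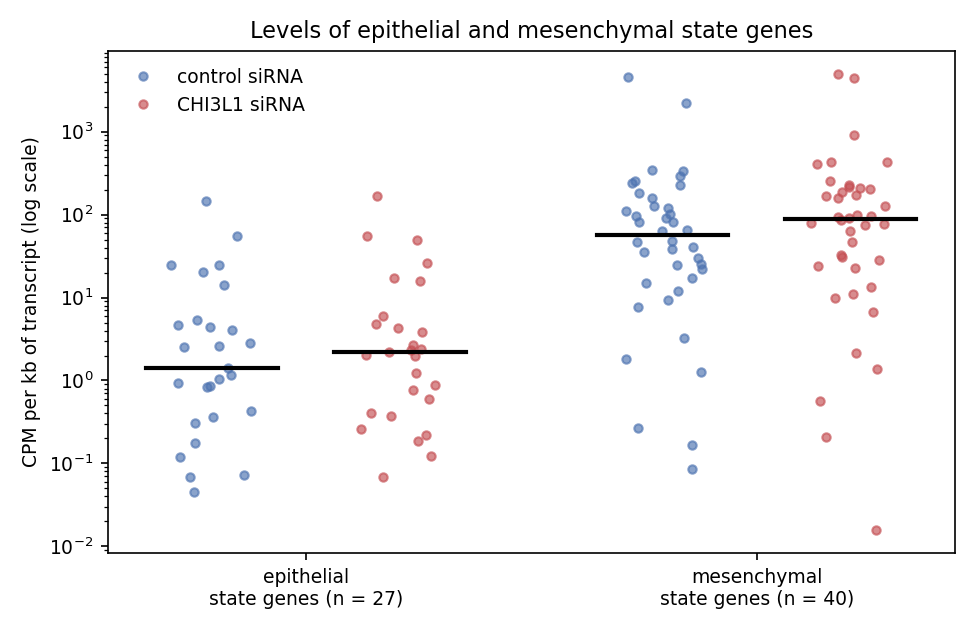
Level in CPM per kb of transcript (log axis) of the 27 epithelial and 40 mesenchymal state genes with a row, in the control library (blue) and the knockdown library (red), 1 point per gene and a black bar at the median; horizontal scatter is only for display. The epithelial medians lie at 1.41 and 2.20 CPM per kb and the mesenchymal medians at 56.1 and 88.6. They include 6 epithelial and 2 mesenchymal genes below the mean of 1 CPM.

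Other factors that drive or accompany EMT numbered 18, of which 16 had a row and 15 passed the mean of 1 CPM. These 15 held 2 higher, 1 lower and 12 neither, beside 7.73% of all tested genes higher and 13.4% lower. Their median log2 fold was 0.11. ETS1 stood at 113 and 176 CPM, and their ratio was 1.56 (1.48 to 1.66), and the forkhead gene FOXQ1 had 34 and 85 reads. SOX4 had a log2 fold of 0.45. ID1, an inhibitor of helix-loop-helix factors such as E proteins, stood at 123 and 74.9 CPM, and their ratio was 0.610 (0.569 to 0.653).

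SNAI and ZEB proteins act through corepressor complexes, and all 16 of 16 such genes passed the mean of 1 CPM. They held 2 higher, 1 lower and 13 neither, beside 7.73% of all tested genes higher and 13.4% lower. The median log2 fold was 0.16. After the length and GC correction 0 were higher and 2 lower. LIMD1 stood at 31.4 and 49.8 CPM and RCOR1 (CoREST) at 57.3 and 89.5 CPM. HDAC2, a histone deacetylase, stood at 197 and 130 CPM, and their ratio was 0.661 (0.627 to 0.697), while HDAC1 had a log2 fold of 0.27. SIN3A and CTBP1 had log2 folds of 0.52 and 0.12.

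Snail and Twist proteins are short-lived, and of 14 genes for their turnover 13 had a row and passed the mean of 1 CPM. Those 13 held 2 higher, 1 lower and 10 neither, beside 7.73% of all tested genes higher and 13.4% lower. GSK3B, the kinase that marks Snail for degradation, stood at 72.7 and 117 CPM, a log2 fold of 0.68. LATS2, a Hippo pathway kinase, stood at 24.2 and 41.4 CPM. BTRC, the ubiquitin ligase subunit that reads the GSK3B mark, had a log2 fold of 0.56, and the casein kinase gene CSNK1A1 of 0.20. COPS2, a subunit of the COP9 signalosome, stood at 169 and 70.4 CPM, and their ratio was 0.415 (0.389 to 0.443). Its exons overlap those of GALK2 on the opposite strand (294 and 387 reads). RNA levels say nothing of the amount of the proteins. Of 6 antisense and microRNA host transcripts 3 had a row, with log2 folds of −0.65 for VIM-AS1, −0.37 for SNAI3-AS1 and 0.10 for ZEB1-AS1, and MIR200CHG, MIR205HG and ZEB2-AS1 had none.

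Log2 folds in this pair of libraries moved with transcript length, and the members differ in length. Tested protein-coding genes with transcripts of over 6000 nt had a median log2 fold of 0.31, and 17.9% of them were at least 1.5-fold higher, while for those above 1000 and up to 2000 nt the median was −0.24 and the share 2.81%. CDH11 (6857 nt) and ZEB2 (9541 nt) belong to the long class, and SNAI1 (1686 nt), TWIST1 (1666 nt) and VIM (1868 nt) to the short one. Once a smooth trend with length, GC content and coding length of the transcript was subtracted, the log2 fold was 1.26 for CDH11, 0.69 for CDH3, 0.43 for ZEB2, 0.59 for VIM and 0.59 for SNAI1. For the rest it was 0.39 for SNAI2, 0.27 for TWIST1, 0.16 for ZEB1, 0.14 for CDH2 and −0.06 for CDH1. On that scale 4 members were at least 1.5-fold higher (CDH11, CDH3, SNAI1 and VIM) and 0 lower, beside 5.66% of 12669 genes higher and 7.62% lower. CDH11 and CDH3 were past 1.5-fold with and without the correction, ZEB2 only without it, and VIM and SNAI1 only with it. Corrected counts of the lists were 12 higher and 0 lower for the mesenchymal genes, 5 and 1 for the epithelial genes, 2 and 0 for the desmosome genes, and 1 and 0 for the epithelial regulators. They were 0 and 0 for cadherin processing, 0 and 2 for the corepressors, 0 and 1 for the catenins and for the other cadherins, 3 and 0 for the other EMT factors, 2 and 1 for turnover, and 1 and 0 for the vimentin partners. The part of length in the uncorrected counts was not tested.

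**Figure D4:**
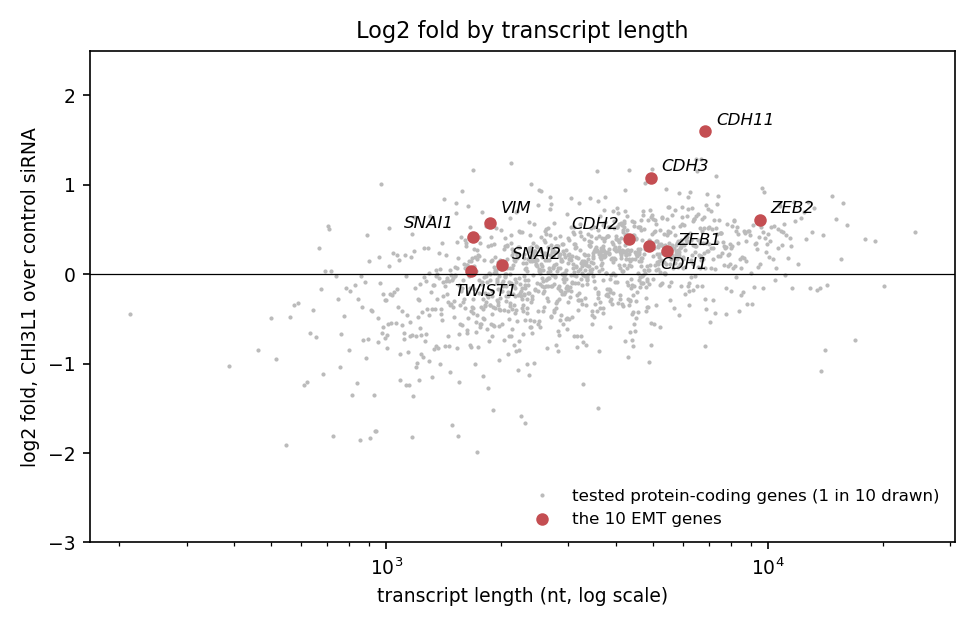
Log2 fold, CHI3L1 siRNA over control siRNA, against transcript length (log axis) for the 10 members (red, named) and for 1 in 10 of the tested protein-coding genes (grey). Grey points climb with length, and CDH11 and CDH3 lie above most genes of like length.

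**Figure D5:**
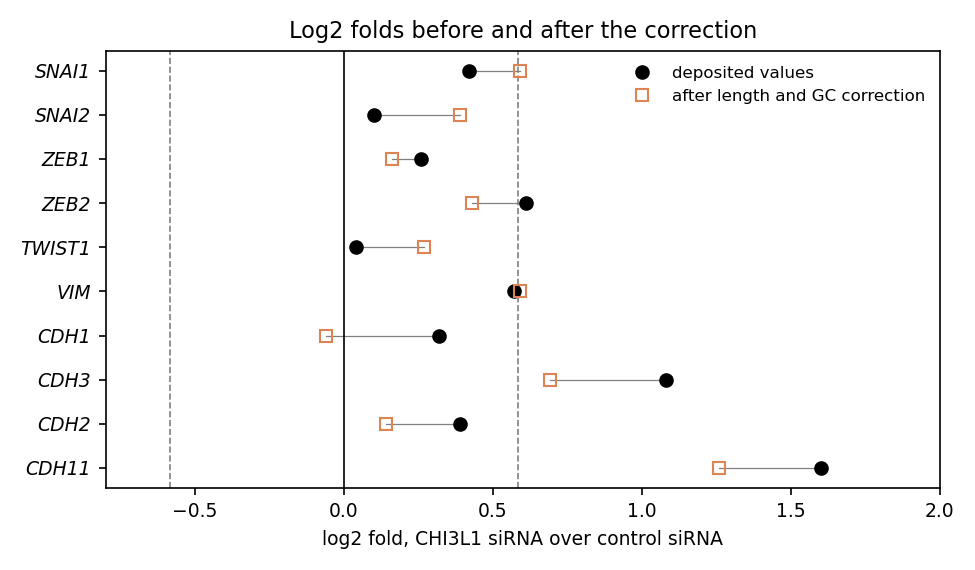
Log2 fold of each member in the deposited values (black circles) and after the length and GC correction (orange squares), with dashed lines at 1.5-fold in either direction and 1 library per group. CDH11 (1.60 and 1.26) and CDH3 (1.08 and 0.69) lie past the line in both, and CDH1 lies on either side of 0 (0.32 and −0.06).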

How the data were processed

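Per the labels' protocols, Trizol was used for extraction and a TruSeq kit for the libraries. The authors deposited 1 table of normalised values in CPM for 19362 Ensembl genes in 2 libraries, 1 per group. Per the submitters' processing notes, GRCh38, featureCounts, HISAT2, Trimmomatic, MultiQC and FastQC were used, with no versions. No source used here gives the normalisation tool, the annotation or any filter. Dividing by the step of 1 read and taking off 0.001 left whole reads for 100% of values (within 0.01 read) and totals of 15837449 and 19467345 reads. Every gene had at least 6 reads in 1 of the libraries. No count model was run.

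GENCODE 29 (GRCh38) gave coordinates and transcript lengths, and symbols where an identifier table lacked them, using the principal coding transcript with the best support. Exons of 5 members overlap those of another gene in the table, which had at most 13.8% of the member's reads. The trend correction used natural cubic splines (5 degrees of freedom per term, patsy 1.0.2) fitted to 12500 coding genes outside the lists and took up 36.1% of their variance. Steps were tested on simulated data. The members and lists were chosen with earlier results of these data known. The genes named are the members, CHI3L1, up to 4 genes per list with the largest absolute log2 fold, the 2 with the highest level per kb, and the 3 nearest to CDH11. Cell type markers, overlapping genes, TWIST2, CDH16, JUP, MARVELD2 and S100A4 fall outside this. Alternatives were pseudocounts, scaling, filters, the fold and the length correction. Protein sequences were not used here. Some genes that the naming rule or the marker lists hold are not reported here.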

Additional observations from a re-analysis of the deposited data

How the results depend on the processing

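The members' count at 1.5-fold was 3 of 10 higher in the deposited values, beside 7.73% of tested genes. It was 4 after the length and GC correction, beside 5.66% of 12669 genes. At 2-fold the count was 2, beside 1.03% of tested genes. With 10 CPM added, and after centring on genes averaging 50 CPM or more, it was 2, and under the remaining alternatives 3. Lower members numbered 0 in each setting. Shares of all genes are given here for the deposited and corrected values only. CDH11 and CDH3 were past 1.5-fold in every setting run. With 10 CPM added to each value, the log2 fold was 1.14 for CDH11 and 0.75 for CDH3. ZEB2 fell short of 1.5-fold with 10 CPM added (0.45), after centring on genes averaging 50 CPM or more (0.51) and after the length and GC correction (0.43). Centring, which shifts each log2 fold by −0.10, gave −0.06 for TWIST1 and 0.00 for SNAI2. Of 50 member values under 5 alternatives, 2 were below 0 (TWIST1 after centring and CDH1 after the correction). Higher epithelial genes numbered 5 of 21, and 1 of 21 at 2-fold, beside 7.73% and 1.03% of tested genes. They numbered 1 of 21 with 10 CPM added and 1 of 9 among genes averaging 10 CPM or more. Lower epithelial genes numbered 0, and 1 of 21 after centring and after the correction, beside 7.62% of genes in the latter. Higher mesenchymal genes numbered 17 of 38, and 10 of 38 at 2-fold, beside 7.73% and 1.03% of tested genes. The 1 lower mesenchymal gene was 0 at 2-fold and after the correction, beside 4.41% and 7.62% of genes lower. Trimmed mean scaling moved log2 folds by −0.001. No paired analysis was possible because each group has 1 library.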
